A study of Mus musculus with 12 samples.

Results

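The genes described here encode the molecules that show peptides to T cells and part of the machinery that makes and moves those peptides. They were the 10 genes of the expression table named H2-K1, H2-D1, B2m, H2-Aa, H2-Ab1, H2-Eb1, Cd74, Tap1, Psmb8 and Psmb9, out of 57180 genes in the table. All 10 passed the filter on low counts and were among the 19350 genes tested. The livers came from 12 mice, 3 female and 3 male animals of each of 2 genotypes, called KO and Het. Every mouse of both genotypes was labelled as lacking Csa (also called Ercc8), a transcription-coupled repair gene, and had received AAV9-CSA, a viral vector that carries human CSA complementary DNA under the ubiquitous CBA promoter, injected into the brain ventricles shortly after birth. The Het mice were Csa-/-;Xpa+/- littermates matched to the KO mice for age, and the KO mice were taken when they reached a humane endpoint. The deposited design writes KO as Csa-/-;Xpa+/+, whereas the study describes its sick animals as lacking both Csa and Xpa, which is a nucleotide excision repair gene. Xpa transcripts stood at 0.992 to 1.83 CPM (read counts scaled to a common library size) in the 6 KO livers and at 3.10 to 6.34 CPM in the 6 Het livers, a log2 difference of -1.83 ± 0.163 (SE, adjusted p = 4.14e-05). Ercc8 reads were present in all livers, at 5.10 to 8.68 CPM in Het and at least 14.8 CPM in KO livers, a log2 difference of 1.62 ± 0.174 (SE, adjusted p = 0.000156). The part of Ercc8 that the Csa allele removes is not given in the sources used here, so these reads do not check that label, and their source was not tested. Germline alleles are carried by all cell types of the liver, and endpoint illness and genotype cannot be told apart in these groups.

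MHC class I molecules pair a heavy chain, here H2-K1 or H2-D1, with the small subunit beta-2 microglobulin (B2m), and are carried by nearly all nucleated cells, hepatocytes included. They present peptides cut by the proteasome, whose interferon-inducible catalytic subunits include Psmb8 and Psmb9, and moved into the endoplasmic reticulum by the transporter that Tap1 forms with Tap2. MHC class II molecules pair an alpha chain (H2-Aa) with a beta chain (H2-Ab1), with H2-Eb1 as the beta chain of a further pair, and the invariant chain Cd74 guides them to the endosome. In liver they mark mainly dendritic cells, B cells and macrophages, and their transcription depends on the coactivator Ciita. In whole liver RNA, fewer cells of a type and less RNA per cell cannot be told apart.

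In the GRCm39 build, 8 of the 10 genes lie on chromosome 17 between positions 34214987 and 35486475, a stretch of 1271489 bases and B2m is on chromosome 2. Tap1 and Psmb9 run in opposite directions and overlap, with start sites 363 bases apart that each lie inside the other gene. H2-Aa and H2-Eb1 also overlap on opposite strands. The library kit marked strand, but whether counting used it is not given in the sources used here. The class II chains varied together across these livers, whereas H2-K1 and H2-D1 correlated with Pearson r of only 0.213 on log2 CPM over 12 livers and 0.713 within groups, so the 250 bases before the start of each are shown, read from the reference genome along the gene's own strand and written in lower case. Capitals mark exact matches, on either strand, to CCAAT (the Y box bound by NF-Y), AGCAAC (the core of the class II X box) or TTCNNNGAA (the pattern of STAT factors).
H2-Aa, chr17:34506798-34507047, minus strand: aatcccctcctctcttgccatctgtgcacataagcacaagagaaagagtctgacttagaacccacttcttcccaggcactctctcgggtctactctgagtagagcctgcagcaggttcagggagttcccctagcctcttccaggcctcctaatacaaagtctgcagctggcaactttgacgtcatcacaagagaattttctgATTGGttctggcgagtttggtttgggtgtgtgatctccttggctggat
H2-Ab1, chr17:34481933-34482182, plus strand: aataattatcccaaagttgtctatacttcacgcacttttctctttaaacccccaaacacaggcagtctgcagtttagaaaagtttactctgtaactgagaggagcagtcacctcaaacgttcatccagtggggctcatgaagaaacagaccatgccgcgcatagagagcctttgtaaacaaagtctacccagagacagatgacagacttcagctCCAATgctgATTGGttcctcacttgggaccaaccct
H2-Eb1, chr17:34524563-34524812, plus strand: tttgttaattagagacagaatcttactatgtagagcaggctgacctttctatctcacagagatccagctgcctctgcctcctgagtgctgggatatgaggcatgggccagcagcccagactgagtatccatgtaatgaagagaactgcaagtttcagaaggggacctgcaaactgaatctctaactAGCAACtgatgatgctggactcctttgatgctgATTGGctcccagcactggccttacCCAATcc
H2-K1, chr17:34219322-34219571, minus strand: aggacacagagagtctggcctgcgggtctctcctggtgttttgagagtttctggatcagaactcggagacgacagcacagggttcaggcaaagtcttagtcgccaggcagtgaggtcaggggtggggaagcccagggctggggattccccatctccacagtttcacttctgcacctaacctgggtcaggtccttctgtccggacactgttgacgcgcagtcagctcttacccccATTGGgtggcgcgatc
H2-D1, chr17:35481441-35481690, plus strand: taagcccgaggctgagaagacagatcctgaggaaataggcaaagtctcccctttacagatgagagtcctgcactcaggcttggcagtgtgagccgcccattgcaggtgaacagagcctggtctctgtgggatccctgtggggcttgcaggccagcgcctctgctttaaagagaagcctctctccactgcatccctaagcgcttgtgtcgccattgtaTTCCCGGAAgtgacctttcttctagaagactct
The 3 class II chains and H2-K1 carried CCAAT within 48 bases of the start, and none of the matches overlapped a match to another motif. CCAAT was found in 6 of the 10 members and in 36.5% of the 21770 protein-coding promoters of the same length. AGCAAC was found in H2-Eb1 alone among the members and in 11.7% of promoters. TTCNNNGAA was found in H2-D1 alone among the members and in 7.7% of promoters. The pattern of interferon regulatory factors, GAAA followed by GAAA after 2 bases of any kind, was found in 0 of the members and in 3.3% of promoters. These matches describe letters in the window and not bound sites. Exact matching misses variant forms, so a window without a match may still hold the element. Antisense transcripts are annotated across part of the windows of H2-K1 (Gm53999) and H2-Eb1 (Gm20513) and across all of that of H2-D1 (5430410E06Rik). The window of H2-Aa lies wholly inside the annotated span of H2-Eb1, which runs on the opposite strand.

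H2-K1 and H2-D1 are close copies, which bears on how reads are divided between them. The longest identical stretch of their coding sequences measured 91 bases, inside exon 4 of each gene, which encodes the domain nearest the membrane.
H2-K1 chr17:34216317-34216407 (minus strand) and H2-D1 chr17:35484887-35484977 (plus strand): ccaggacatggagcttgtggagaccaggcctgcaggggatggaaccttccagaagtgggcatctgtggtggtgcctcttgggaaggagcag
Of the 31-base words in the H2-K1 transcript, 23.5% also occurred in another gene and 16.9% in H2-D1. The share for H2-D1 was 28.5%, with 12.8% in H2-K1. The other 8 members shared at most 1.7% of theirs, so sequence shared between transcripts is a limit mainly for the heavy chains. These words were read along each transcript's own strand, so they do not cover overlaps of genes on opposite strands.

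Levels between genes were compared as TPM, a transcript abundance that accounts for transcript length. Averaged over 12 livers, B2m was highest at 657 TPM (range 439 to 833), followed by H2-K1 at 451 TPM (256 to 555) and H2-D1 at 135 TPM (104 to 176). The ranges of B2m and H2-K1 overlapped, and that of H2-D1 overlapped with none of the other members. Cd74 followed at 25.9 TPM, then Psmb8 at 14.9 TPM, H2-Aa at 12.2 TPM, H2-Eb1 at 9.56 TPM, H2-Ab1 at 8.30 TPM, Tap1 at 5.63 TPM and Psmb9 at 4.74 TPM, with overlapping ranges between neighbours. Livers were compared within a gene as CPM after scaling by the TMM method.

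Between the genotypes, over both sexes, 1 of the 10 members rose in KO livers (H2-D1), 1 fell (B2m) and 8 did not pass an adjusted p of 0.05. Across all genes tested 22.4% passed, 12.2% upward and 10.2% downward, so the members' share was close to the background. The members' median log2 fold change was -0.21 against 0.02 for all genes.

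**Figure D1:**
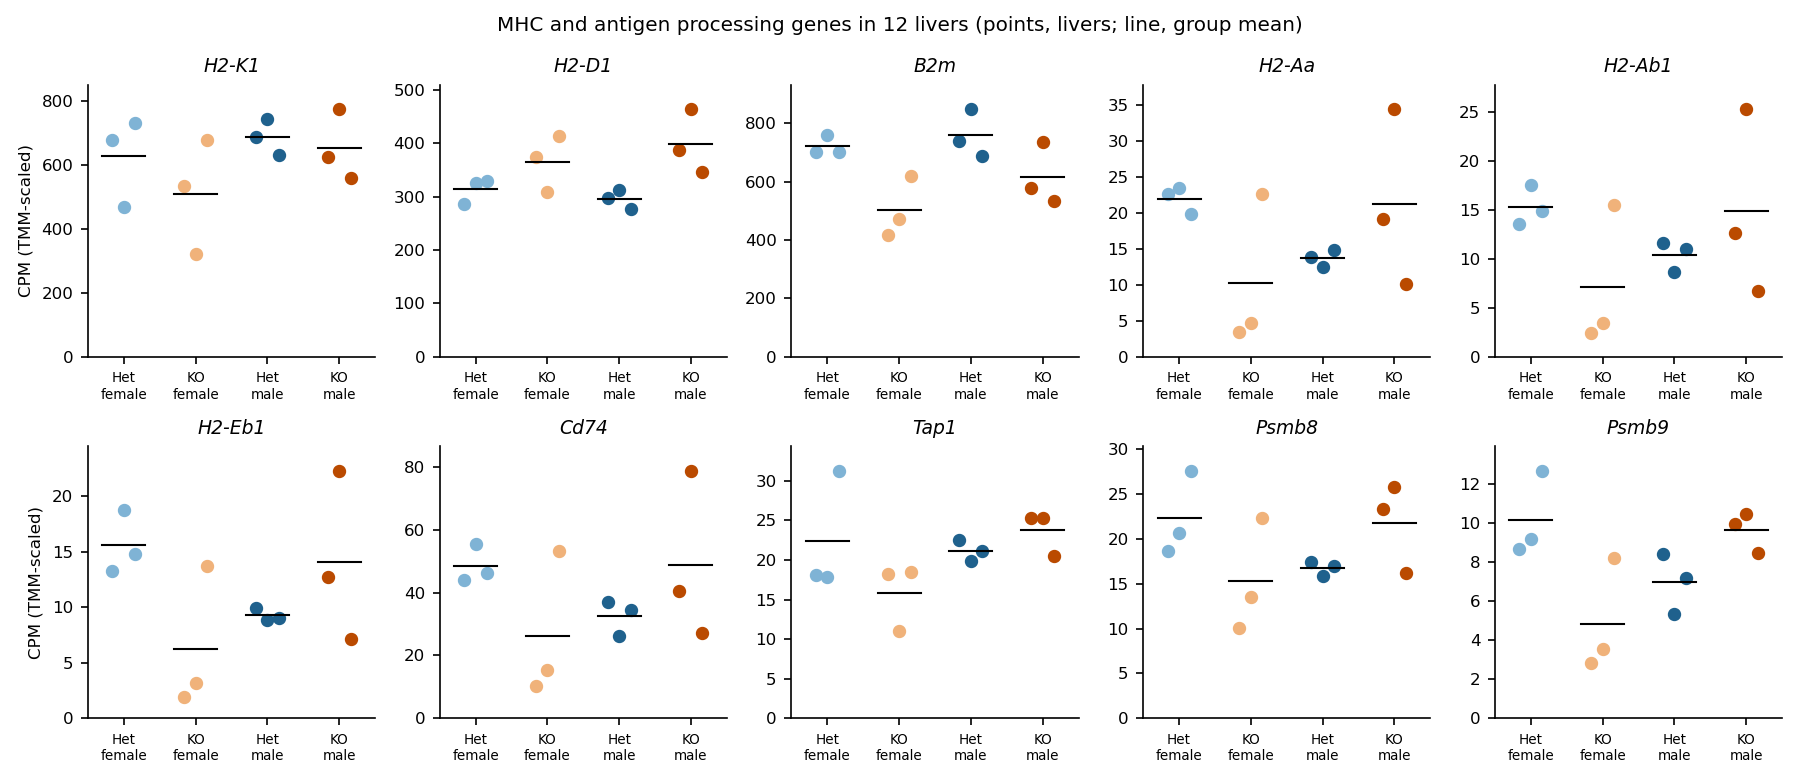
TMM-scaled CPM of each of the 10 genes in every liver, with a vertical axis from 0 in each panel, points for livers and a line for each group's mean. Group means of H2-D1 are higher and those of B2m lower in KO livers of both sexes, and the class II genes of 2 KO females lie far below all other livers.

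B2m, the shared light chain of all classical class I molecules, was found at 704, 761 and 701 CPM in Het females and at 419, 471 and 621 CPM in KO females. Het males had 740, 849 and 690 CPM, and KO males 577, 736 and 535 CPM. All KO females lay below all Het females, while the highest KO male lay inside the range of the Het males. B2m fell by 0.41 ± 0.125 (SE) on the log2 scale over both sexes (adjusted p = 0.0350).

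H2-D1, one of the classical heavy chains, moved the other way. Its levels were 286, 326 and 329 CPM in Het females and 373, 309 and 414 CPM in KO females. Het males had 297, 312 and 277 CPM and KO males 386, 463 and 345 CPM, so the male groups did not overlap and the female groups did. The log2 fold change over both sexes was 0.33 ± 0.107 (adjusted p = 0.0474).

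Both calls sat near the threshold. The H2-D1 call held when KO_F_112 or KO_M_136 was left out and was lost when any 1 of the other 10 livers was left out, with adjusted p from 0.0732 to 0.119. The B2m call was lost without any 1 of 8 livers (Het_F_111, Het_F_115, Het_M_119, Het_M_125, KO_F_108, KO_F_112, KO_M_118 and KO_M_136), with adjusted p from 0.0528 to 0.0780. The direction of each gene was the same in all of these fits.

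H2-K1, the other classical heavy chain, did not pass the test. Het females had 679, 470 and 731 CPM and KO females 534, 320 and 677 CPM. Het males had 687, 745 and 630 CPM and KO males 625, 774 and 558 CPM. The groups overlapped in both sexes, and the log2 fold change was -0.19 ± 0.179 (adjusted p = 0.489). The lowest values belonged to Het_F_115 (470 CPM) and KO_F_112 (320 CPM).

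These same livers stood apart in a neighbouring gene. H2-Ea, the alpha chain that pairs with H2-Eb1, lies on chromosome 17 between positions 34560926 and 34563618 and is known to be silent in mice of the b haplotype of the MHC, such as C57BL/6. It was chosen after its values had been seen. H2-Ea had 266 counts in Het_F_115 (6.79 CPM) and 43 counts in KO_F_112 (1.33 CPM), and 0 counts in each of the other 10 livers, where the floor of 3 counts corresponds to at most 0.1001 CPM. The MHC haplotypes of the mice are not given in the sources used here. The part of this difference in the values of the other MHC genes was not tested, and results for the heavy chains are given with and without these 2 livers.

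The heavy chains were next set against B2m and against each other within each liver, as log2 ratios of CPM. These ratios, 8 in all, were chosen after the values had been seen, so their p-values are not those of a test set in advance. The permutations exchanged genotype labels between livers without regard to sex. H2-D1 over B2m joins the member called upward with the member called downward in these same livers. H2-D1 over B2m was -1.44 to -1.09 in the 6 Het livers and -0.67 to -0.17 in the 6 KO livers, with no overlap. The mean rose from -1.28 ± 0.117 to -0.54 ± 0.186 (SD, n = 6 each), which is a 1.67-fold higher ratio in KO livers (exact two-sided permutation p = 0.00216, the smallest that 6 against 6 can give, Benjamini-Hochberg adjusted p = 0.0173). H2-D1 over H2-K1 averaged -1.10 ± 0.281 in Het and -0.57 ± 0.266 in KO livers (exact permutation p = 0.0108, adjusted p = 0.0433), with overlap because Het_F_115 stood at -0.53. H2-K1 over B2m differed by 0.21 (exact permutation p = 0.240). Its lowest values were again those of Het_F_115 at -0.69 and KO_F_112 at -0.56, against -0.19 to 0.35 in the other livers.

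Without these 2 livers, which had the lowest H2-K1 over B2m of their genotypes, all 3 ratios separated the genotypes. No test is given for these values, since both the ratios and the livers left out were chosen after the values had been seen. H2-D1 over H2-K1 was then -1.25 to -1.15 in 5 Het livers and -0.74 to -0.52 in 5 KO livers. The 5 Het livers had H2-K1 over B2m from -0.19 to 0.06, and the 5 KO livers from 0.06 to 0.35 with the lowest just above the highest Het liver. H2-D1 over B2m differed by 0.77 in log2. In the fit over all genes without these livers, H2-D1 was 0.39 higher in log2 (adjusted p = 0.0482), and B2m no longer passed (log2 fold change -0.38, adjusted p = 0.111), where 17.6% of all genes passed.

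**Figure D2:**
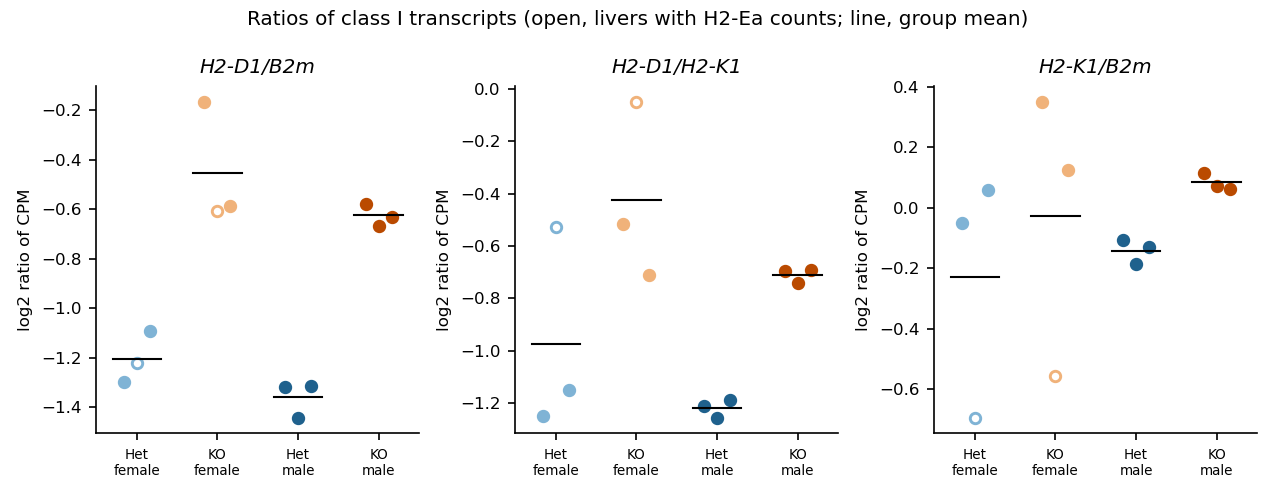
Log2 ratios of CPM between B2m, H2-D1 and H2-K1 in each liver, with open points for the 2 livers that had H2-Ea counts and a line for each group's mean. H2-D1 over B2m separates all 6 KO from all 6 Het livers, while the open points are the lowest for H2-K1 over B2m.

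The class II genes showed the widest spread between livers of any members. H2-Aa, the alpha chain, was found at 22.6, 23.4 and 19.9 CPM in Het females and at 13.8, 12.5 and 14.9 CPM in Het males. KO females had 3.44, 4.64 and 22.7 CPM, and KO males 19.1, 34.4 and 10.1 CPM. KO_F_108 and KO_F_112 thus lay below every other liver, while KO_F_123 matched the Het females and KO_M_122 was the highest of all.

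The beta chains followed. H2-Ab1 was found at 13.5, 17.5 and 14.8 CPM in Het females, 2.39, 3.47 and 15.5 CPM in KO females, 11.6, 8.68 and 11.0 CPM in Het males, and 12.6, 25.2 and 6.76 CPM in KO males. H2-Eb1 was found at 13.2, 18.7 and 14.8 CPM in Het females, 1.89, 3.16 and 13.7 CPM in KO females, 9.98, 8.88 and 9.05 CPM in Het males, and 12.8, 22.3 and 7.14 CPM in KO males. The same 2 KO females were lowest and the same KO male highest for both chains.

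Cd74, the invariant chain, lies on chromosome 18, away from the other class II genes. It was more abundant and had its lowest and highest values in the same livers. Its levels were 43.95, 55.4 and 46.3 CPM in Het females, 10.2, 15.3 and 53.2 CPM in KO females, 37.0, 26.2 and 34.6 CPM in Het males, and 40.6, 78.8 and 27.01 CPM in KO males. Over the 12 livers the 6 pairs of class II genes correlated with Pearson r between 0.985 and 0.993 on log2 CPM, and within groups with r between 0.980 and 0.995. These are descriptions over livers that share scaling and, in bulk RNA, a cell makeup. Set against this, the ratios of Cd74 to H2-Aa and of H2-Aa to H2-Ab1 differed between genotypes by 0.18 (exact permutation p = 0.178) and 0.05 (exact permutation p = 0.489) in log2.

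Over both sexes the class II members had log2 fold changes from -0.36 (H2-Eb1) to -0.15 (Cd74), with standard errors of 0.394 to 0.447 and no call. In females the changes were -1.09 for H2-Aa, -1.09 for H2-Ab1, -1.31 for H2-Eb1 and -0.89 for Cd74, with adjusted p from 0.196 to 0.328. In males the changes were 0.62, 0.51, 0.59 and 0.58 in the same order, with adjusted p from 0.579 to 0.676. KO and Het livers overlapped for each of these genes in both sexes. Among Het livers, every male lay below every female for all 4 genes, with log2 differences of -0.74 to -0.55 that did not pass (adjusted p from 0.741 to 0.826). Some cell markers moved with this difference, immune and other. Summed leukocyte genes stood at 41.1 to 55.0 CPM in Het females and 22.4 to 28.5 CPM in Het males, and summed Kupffer cell genes at 324 to 421 CPM and 159 to 213 CPM, with no overlap. Sinusoidal endothelial genes (322 to 418 and 220 to 304 CPM) and stellate cell genes (270 to 369 and 185 to 269 CPM) did not overlap either. The B cell, plasma cell, T cell, monocyte and plasmacytoid dendritic cell lists overlapped between these sexes. Class II per leukocyte transcript was 1.74 to 2.49 in Het females and 2.44 to 2.78 in Het males. Per Kupffer cell transcript it was 0.227 to 0.309 and 0.340 to 0.361 in the same order. Per conventional dendritic cell transcript it was 4.945 to 6.798 and 4.049 to 4.932, with every Het male only narrowly below every Het female. That separation rests on a sum that includes Zbtb46, a gene that endothelial cells carry too. Without Zbtb46 the dendritic cell sums overlapped, at 4.62 to 8.17 CPM in Het females and 3.68 to 6.78 CPM in Het males. The part of these cells in the difference was not tested.

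KO_F_123 decided these calls. Without it, 7 members passed in females, namely B2m, Psmb8, Psmb9 and all 4 class II genes, whose log2 changes were then -2.61 to -1.94 (adjusted p from 0.00530 to 0.0140). In that fit 14.2% of all genes passed in females. Over both sexes 5 members then passed (B2m, H2-Aa, H2-Ab1, H2-Eb1 and Psmb9), all downward, where 22.3% of all genes did. KO_F_123 had the highest value of the KO females for each of these 7 members, so leaving it out kept the lower livers. This fit was singled out by the values it tests, and its adjusted p-values are not those of a test set in advance. The liver was not left out for any technical reason, and its depth and scaling lay within the range of the others.

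Markers of the cells that carry class II were read beside these values. The summed class II transcripts of KO_F_108 and KO_F_112 were 17.9 and 26.5 CPM, against at least 93.3 CPM in Het females. The 4 general leukocyte genes (Ptprc, Laptm5, Coro1a and Cd53) summed to 36.5 and 42.4 CPM in these livers, the first below and the second inside the Het female range of 41.1 to 55.0 CPM. They did not move as one, since Ptprc, the leukocyte phosphatase CD45, stood at 9.89 and 13.6 CPM, below all Het females (18.6 to 24.8 CPM), and the lysosomal protein Laptm5 at 18.1 and 20.2 CPM, against 13.0 to 18.6 CPM. Kupffer cell markers, 10 genes of the resident liver macrophages, summed to 417 and 547 CPM in those livers, against 324 to 421 CPM in Het females. They did not move as one either. Marco stood at 69.5 and 131 CPM, against 2.99 to 25.7 CPM, and Vsig4 at 26.0 and 26.4 CPM, against 17.8 to 19.7 CPM. Clec4f (72.4 CPM), Timd4 (1.52 CPM) and Adgre1 (11.3 CPM) lay below all Het females in KO_F_108 and inside their range in KO_F_112. Class II per leukocyte transcript was 0.490 in KO_F_108 and 0.625 in KO_F_112, against 1.59 to 2.78 in the other 10 livers.

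Dendritic cell markers did not all follow. The 9 conventional dendritic cell genes summed to 9.45 and 8.05 CPM in KO_F_108 and KO_F_112, 8.05 to 12.7 CPM in KO females, 9.34 to 16.2 CPM in KO males, 16.9 to 19.4 CPM in Het females and 13.9 to 15.9 CPM in Het males. Of these 9 genes, 1 fell with genotype, the transcription factor Zbtb46, which endothelial cells carry too, by 0.88 on the log2 scale (adjusted p = 0.000735). The other 8 did not pass, with log2 changes from -0.74 (Xcr1) to 0.27 (Batf3). Without Zbtb46 the sums in KO_F_108 and KO_F_112 were 4.03 and 4.18 CPM, below the Het females (4.62 to 8.17 CPM) and inside the range of the Het males (3.68 to 6.78 CPM). Of the defining markers, Flt3 and Xcr1 had 0 counts in KO_F_108 and 0.0619 CPM each in KO_F_112, where the floor of 3 counts is 0.0929 CPM. Both genes were low throughout, at 0.163 to 0.778 CPM (Flt3) and 0.102 to 0.432 CPM (Xcr1) in Het livers. Xcr1 stood at 0.058 CPM in KO_M_136 too. Clec9a stood at 3.13 and 2.79 CPM in KO_F_108 and KO_F_112, inside the Het range of 2.14 to 4.57 CPM. B cell markers (7 genes) summed to 5.52 and 23.7 CPM in the same 2 livers, within the range of 5.07 to 40.6 CPM in Het livers. T cell markers (8 genes) summed to 1.302 and 2.07 CPM against 2.08 to 5.42 CPM in Het livers. The part of these cell types in the class II levels was not tested.

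**Figure D3:**
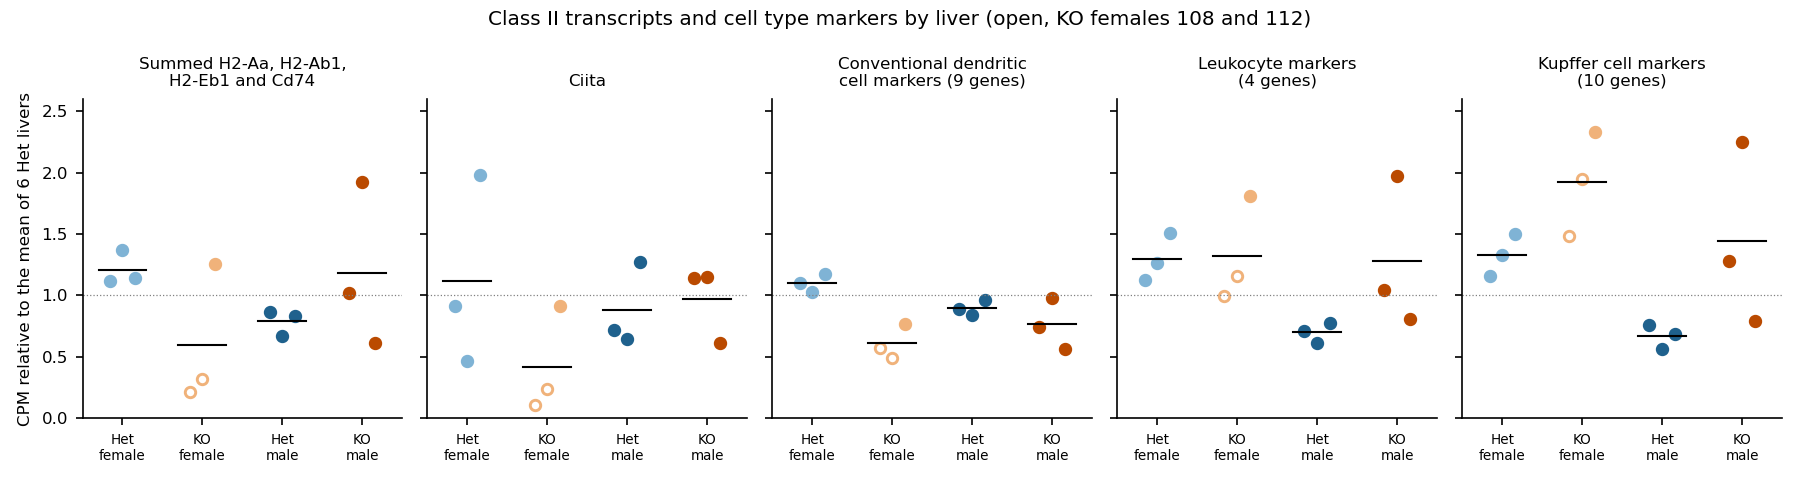
Summed CPM of the 4 class II genes, CPM of Ciita and summed CPM of 3 marker lists in each liver, relative to the mean of the 6 Het livers (dotted line at 1), with open points for KO_F_108 and KO_F_112. These livers are lowest for class II and Ciita and stand at 0.57 and 0.49 for conventional dendritic cell markers. They lie near or above 1 for leukocyte and Kupffer cell markers, for which Het females lie above Het males.

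Among the genes that supply peptides, Psmb9 differed most. Psmb9, an inducible catalytic subunit, was found at 8.65, 9.21 and 12.7 CPM in Het females and at 2.82, 3.53 and 8.20 CPM in KO females, with no overlap. Het males had 8.41, 5.37 and 7.16 CPM and KO males 9.96, 10.5 and 8.47 CPM, again with no overlap but in the opposite order. The log2 change was -1.06 ± 0.336 in females (adjusted p = 0.0630) and 0.46 ± 0.333 in males (adjusted p = 0.439). The difference between these changes was 1.52 ± 0.473, with an unadjusted p of 0.00755 and an adjusted p of 0.421 in the fit across all genes.

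Psmb8, its partner subunit, was found at 18.6, 20.7 and 27.6 CPM in Het females and at 10.04, 13.6 and 22.3 CPM in KO females. Het males had 17.5, 15.8 and 16.9 CPM and KO males 23.3, 25.7 and 16.2 CPM. The genotypes overlapped in both sexes, with log2 changes of -0.54 in females and 0.38 in males. The difference between the sexes was 0.92 ± 0.373 (unadjusted p = 0.0303, adjusted p = 0.492).

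Tap1, a subunit of the peptide transporter, was found at 18.1, 17.9 and 31.3 CPM in Het females and at 18.2, 11.0 and 18.5 CPM in KO females. Het males had 22.5, 19.8 and 21.1 CPM and KO males 25.3, 25.3 and 20.5 CPM. Its changes of -0.49 in females and 0.17 in males had adjusted p of 0.189 and 0.721. KO_F_112, which had the lowest H2-K1, also had the lowest Tap1.

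Psmb8 and Psmb9 tracked the class II genes, with r between 0.891 and 0.915 over 12 livers, whereas Tap1 did so with r between 0.538 and 0.579 and H2-D1 with r between 0.204 and 0.272. Within groups H2-D1 correlated with the class II genes at 0.644 to 0.696. Tap1 and H2-K1 correlated at 0.806. These values share library, scaling and cell makeup between their points.

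Sex by sex, 0 of 10 members passed in females and 0 of 10 in males, by edgeR, against 11.0% and 7.45% of all genes. At an unadjusted p under 0.05, 2 members passed in females (B2m and Psmb9), where 29.0% of all genes did, and 1 in males (H2-D1), where 24.1% did. KO livers lay wholly below Het livers in females for 2 of 10 members (B2m and Psmb9), against 14.7% of all genes, and wholly above them in males for 2 (H2-D1 and Psmb9), against 16.8%. DESeq2 called 2 in females, B2m and Psmb9, where it called 16.4% of all genes, and 0 in males against 11.7%. Limma on log2 TPM called the same 2 in females, against 9.29% with a pseudocount of 1 and 9.35% with 0.1, and 0 in males against 5.18% and 6.12%. The members' median log2 change was -0.71 in females and 0.45 in males, against 0.01 and 0.02 for all genes. For the interaction, 0 of 10 passed against 0.0465% of all genes, and 2 had an unadjusted p under 0.05 (Psmb8 and Psmb9) against 9.28%. All 10 interaction estimates were positive, with a median of 1.19 against 0.02 for all genes, and the 4 class II genes, at 1.47 to 1.90, had standard errors of 0.791 to 0.900 and unadjusted p from 0.0549 to 0.105. With errors of that size, a missed threshold does not show that the sexes responded alike. For males against females averaged over genotypes, 0 of 10 passed against 1.02% of all genes, and 0 had an unadjusted p under 0.05 against 13.8%. In Het mice alone, all males lay below all females for 6 of 10 members (the 4 class II genes, Psmb8 and Psmb9), where 9.16% of all genes did. In KO mice all males lay above all females for 2 members (Tap1 and Psmb9), against 9.11%.

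**Figure D4:**
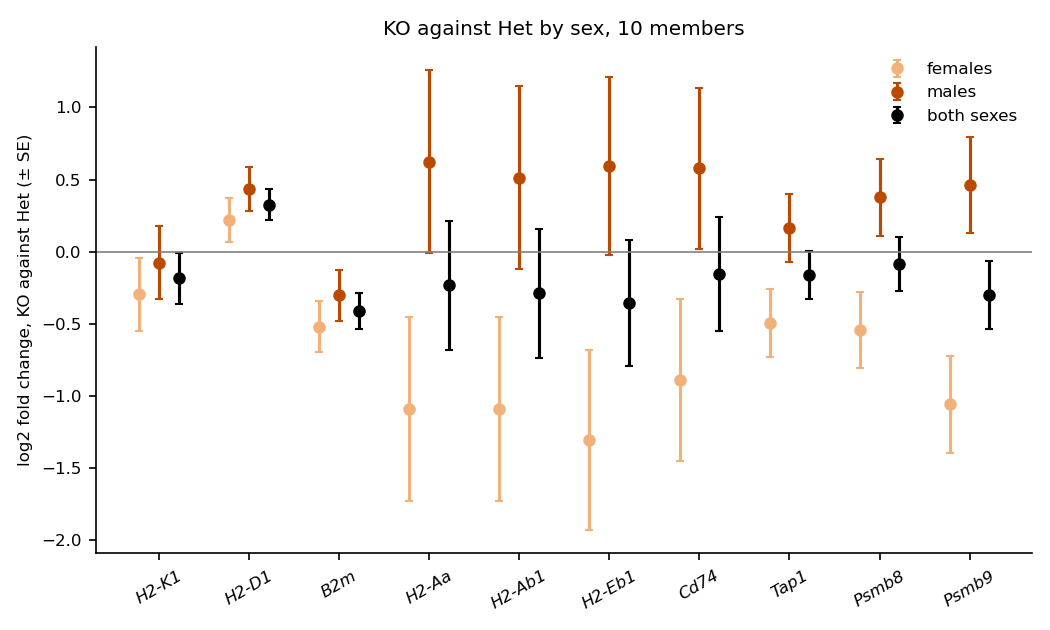
Log2 fold change of KO against Het livers for each member in females, in males and over both sexes, with bars of 1 standard error from the edgeR fit. H2-D1 lies above and B2m below 0 in both sexes, while class II, Psmb8, Psmb9 and Tap1 lie below 0 in females and above 0 in males, and no female or male estimate passed an adjusted p of 0.05.

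The rest of the pathway was counted from lists. For these and the lists of the following paragraphs, 22.4% of all genes passed over both sexes, 12.2% upward and 10.2% downward. A list with shares near these is not read as a result about its genes. Among 16 tested other class I heavy chains, 2 rose and 3 fell. H2-T10, a nonclassical chain, rose by 0.89 in log2 (adjusted p = 0.00400) and H2-Q4 by 0.41 (adjusted p = 0.0411). Their changes were 0.20 and 0.06 in females and 1.58 and 0.76 in males, with the difference between the sexes at adjusted p of 0.257 and 0.480. Fcgrt, the neonatal Fc receptor that recycles albumin and IgG and pairs with B2m, fell by 0.62 (adjusted p = 0.00460), from 120 to 171 CPM in Het to 70.7 to 101 CPM in KO livers. Cd1d1, which presents lipids, fell by 0.45 (adjusted p = 0.0482) and H2-T24 by 0.64 (adjusted p = 0.0493).

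Of 11 other genes of class I peptide supply and loading, 1 rose and 2 fell. Tapbp, the tapasin bridge between transporter and heavy chain, rose by 0.35 (adjusted p = 0.0439), and in males alone by 0.72 (adjusted p = 0.0210) with no overlap. The chaperone Canx fell by 0.61 (adjusted p = 0.00235) and the thiol oxidoreductase Pdia3 by 0.58 (adjusted p = 0.00496), both of which fold many other glycoproteins too. Tap2, the partner of Tap1, differed by -0.20 (adjusted p = 0.272) and Psmb10, the third inducible subunit, by -0.10 (adjusted p = 0.682).

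The constitutive proteasome moved in 1 direction. Of its 14 core subunits tested, 8 fell and 0 rose, with a median log2 change of -0.31. Psmb7, the subunit that Psmb10 replaces, fell from 62.8 to 78.7 CPM in Het to 50.4 to 59.5 CPM in KO livers (log2 change -0.35, adjusted p = 0.0113). Psmb6, which Psmb9 replaces, changed by -0.32 (adjusted p = 0.0282), and Psmb5, which Psmb8 replaces, by -0.25 (adjusted p = 0.0624). Psma2 and Psma6 of the outer rings fell by 0.35 and 0.37. Over both sexes the inducible subunits relative to those they replace did not separate the genotypes. The log2 differences were 0.13 for Psmb8 over Psmb5, -0.04 for Psmb9 over Psmb6 and 0.22 for Psmb10 over Psmb7 (exact permutation p = 0.524, 0.933 and 0.342). In males all KO livers lay above all Het livers for each ratio. The male means rose from -0.57 to -0.002, from -3.50 to -2.76 and from -1.97 to -1.21 in that order. In females the genotypes overlapped, and the means fell from -0.14 to -0.44, from -2.87 to -3.68 and from -1.41 to -1.74. These values by sex were not tested. Among single genes, 16.8% of all those tested lay wholly above Het males in KO males. The ratios divide by constitutive subunits, of which 13 of 14 had a negative log2 change in males, with 0 called.

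On the class II side, 4 of 14 other genes rose and 0 fell. All 4 act in the endosome or lysosome, namely the thiol reductase Ifi30 (0.84, adjusted p = 0.00542), cathepsin Ctss (0.999, adjusted p = 0.00673), the endopeptidase Lgmn (0.71, adjusted p = 0.00764) and cathepsin Ctsl, which was named outside the 3 genes the naming rule takes (1.297, adjusted p = 0.0189). Ctss, which trims the invariant chain, rose from 10.2 to 28.9 CPM in Het to 21.6 to 53.6 CPM in KO livers. In KO_F_108 and KO_F_112 it stood at 33.9 and 33.4 CPM, above all Het livers. Kupffer cell markers, of which 6 of 10 rose, moved with these genes, and their part was not tested.

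Of 13 regulators of MHC transcription, 0 rose and 3 fell, namely Irf2 (-0.55, adjusted p = 0.00214), the NF-Y subunit Nfyb (-0.54, adjusted p = 0.0268) and Creb1 (-0.39, adjusted p = 0.0278). Ciita was found at 2.11, 1.07 and 4.58 CPM in Het females, 0.248, 0.557 and 2.12 CPM in KO females, 1.67, 1.496 and 2.94 CPM in Het males, and 2.65, 2.65 and 1.42 CPM in KO males. Its lowest livers were the KO females that had the lowest class II transcripts. Over both sexes Ciita changed by -0.60 ± 0.456 (adjusted p = 0.370). Nlrc5, the coactivator of class I genes, changed by 0.45 ± 0.174 (adjusted p = 0.0843).

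Interferon signals were mixed. Of 18 tested genes of the interferon gamma pathway 3 rose, namely the GTPase Gbp3 (0.90, adjusted p = 0.00299), the feedback inhibitor Socs3 (1.64, adjusted p = 0.0213) and the receptor chain Ifngr1 (0.39, adjusted p = 0.0263). The chemokine Cxcl10 fell by 0.88 (adjusted p = 0.0304). These averages joined unlike values in the sexes. Socs3 changed by 3.32 in females (adjusted p = 0.0142) and -0.04 in males (adjusted p = 0.976), and Cxcl10 by -1.63 (adjusted p = 0.0187) and -0.14 (adjusted p = 0.861). Gbp3 changed by -0.14 in females (adjusted p = 0.732) and 1.94 in males (adjusted p = 0.000868). The difference between the sexes had adjusted p of 0.0511 for Gbp3, 0.329 for Socs3 and 0.461 for Cxcl10. Irf1, an activator of class I genes, changed by -0.61 (adjusted p = 0.195), and Ifng did not pass the filter on low counts. Of 19 type I interferon response genes 4 rose and 0 fell, led by the ISG15 protease Usp18 (1.46, adjusted p = 0.000156), the antiviral gene Rsad2 (1.31, adjusted p = 0.0114) and Oasl1 (0.71, adjusted p = 0.00490). Of 6 tested costimulatory and checkpoint ligands 1 rose, the checkpoint ligand Cd274 (0.81, adjusted p = 0.0302).

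**Figure D5:**
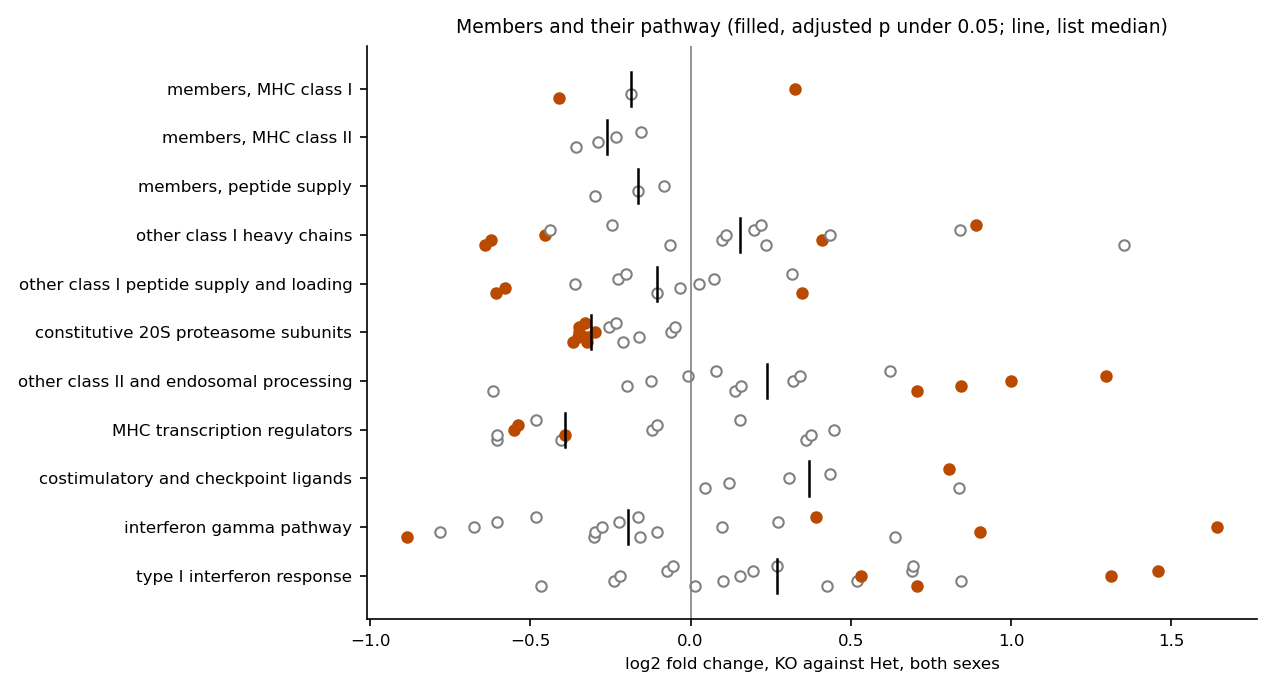
Log2 fold change of KO against Het livers over both sexes for each tested gene of the members and of 8 pathway lists, filled where the adjusted p was under 0.05, with a line at each list's median. The constitutive proteasome has 8 filled points below 0 and the class II and endosomal list 4 above 0, while the class II members have none.

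Genes with the pattern most like the members' were sought among 13250 genes outside the lists with a mean of at least 1 CPM. With the mean z-score of the class II members over 12 livers, the highest Pearson r belonged to the mitochondrial carbonic anhydrase Car5b (0.969), the glutathione transferase Gstt1 (0.959), Jpt1 (0.943), Gsdmd (0.928) and Rpia (0.927). With the class I and peptide supply members high values belonged to AU020206 (0.895), Parp3 (0.879), Tnfrsf14 (0.872) and Cyp2c50 (0.871). None of these genes passed for genotype. Gstt1, a gene of abundant level in liver, was found at 159 to 184 CPM in Het females, 82.7 to 165 CPM in KO females, 146 to 154 CPM in Het males and 135 to 186 CPM in KO males.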

How the data were processed

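Total RNA of 12 livers was depleted of ribosomal RNA and sequenced with a stranded kit. The authors aligned the reads with STAR 2.7.9a to GRCm39, quantified GENCODE M34 genes with Salmon 1.10.1 and deposited estimated counts and TPM per gene. Estimated counts were used for all tests, after rounding, since 12% of values were not whole. Deposited TPM was used for levels between genes and as an alternative. Livers were grouped by the labels. Totals were 30044812 to 43634073 counts per liver, with TMM factors of 0.885 to 1.06, and no pair of livers in a group differed by as little as sampling noise. The number of livers, 3 a group, limits precision more than depth does.

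Genes with at least 5 reads, scaled to the median library, in at least 3 livers were tested with edgeR 4.0.16 in R 4.3.3 (quasi-likelihood F test, the newer of its methods, robust, prior count of 2), with a mean for each of the 4 groups. Adjusted p-values are Benjamini-Hochberg over all 19350 genes tested, with a threshold of 0.05, and SE came from the F statistic. Nothing says that the mice of a group came from separate litters. Log2 CPM used a pseudocount of 0.5. Marker lists were summed in CPM. Exact permutation tests used SciPy 1.17.1. Upstream windows, coordinates and exon numbers came from GRCm39 with GENCODE M39. RefSeq tables of another build were not used. DESeq2 1.42.0, limma 3.58.1 on log2(TPM + 1) and log2(TPM + 0.1), other count tables, scalings and filters, and fits without each liver were alternatives. The method was tested on simulated data.

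The members and lists were chosen with earlier results of these data known. Genes named are all members, the partners Tap2, Tapbp, Psmb10, Psmb5, Psmb6 and Psmb7, the regulators Ciita, Nlrc5, Irf1 and Ifng, up to 3 called genes of smallest p in each direction per pathway list, and the 5 genes most correlated with each member score. Some genes that this rule names are not reported here. Genes outside the rule were chosen after their values were seen.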

Additional observations from a re-analysis of the deposited data

Results flagged for a closer look

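Psmb9, the inducible proteasome subunit, differed in direction between the sexes. All KO females lay below all Het females and all KO males above all Het males. The KO change in males exceeded that in females by 1.52 on the log2 scale, with an adjusted p of 0.421 in the edgeR fit across all genes, so the difference did not pass. Without KO_F_123 the difference was 2.13 and passed, as it did for 0.468% of all genes. KO_F_123 had the highest Psmb9 of the KO females, so leaving it out widened the difference.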

How the results depend on the processing

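Over both sexes the count of members called was 2 and became 1, B2m alone, with scaling by library size only, with limma on log2(TPM + 1), with limma on log2(TPM + 0.1), with length-scaled estimated counts and with edgeR's older quasi-likelihood method, and 1, H2-D1 alone, without the 2 livers that had H2-Ea counts. The older method and the fit without those 2 livers were chosen after seeing the data. In females the count was 0 and became 2 with DESeq2, with limma on log2(TPM + 1) and with limma on log2(TPM + 0.1). Leaving out each liver in turn gave 0 to 5 members over both sexes, 0 to 7 in females and 0 to 3 for the interaction. The upper end of each came without KO_F_123, where a group of 2 livers shares the spread of the others and 22.3%, 14.2% and 0.468% of all genes passed. The count in males was 0 under every alternative run. Of single members' values under the alternatives, 1196 kept their side of the threshold, 24 lost it and 20 gained it, and 0 called values changed sign. The cause of these changes was not tested. The model without interaction gives no interaction value. No paired analysis was possible because the litter of each mouse is not given in the sources used here.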
